A study of Rattus norvegicus with 12 samples.

Results

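Caveolae are small flask-shaped pits of the plasma membrane that are abundant in smooth muscle, endothelium, adipocytes and striated muscle. Their inner coat is built from caveolins, which are membrane-inserted scaffold proteins, and from cavins, which are soluble proteins that assemble on the caveolin layer. The ATPase EHD2 sits at the neck of the pit and holds it at the cell surface. Caveolae flatten when the membrane is stretched, and in vascular smooth muscle they are known as a membrane reserve and as sites where receptors and calcium handling proteins gather. The 7 genes described here were chosen by name, as the rows Cav1, Cav2, Cav3, Cavin1, Cavin2, Cavin3 and Ehd2 of a table of 33294 rat genes. All 7 were found and all 7 passed the filter on low counts in every comparison.

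The RNA came from PAC1, a rat pulmonary artery smooth muscle cell line, as poly(A) RNA from 12 libraries in 4 groups of 3. In the groups D1, RBPMS KD1 and MBNL KD the cells were kept in the more differentiated state (PAC1-D) by splitting them 1:10 and 1 time per week, whereas the P cells were kept in the more proliferative state (PAC1-P) by splitting them 1:20 and 2 times per week. D1 and P received a control siRNA, RBPMS KD1 received siRNA against Rbpms, and MBNL KD received siRNA against Mbnl1 together with Mbnl2. RBPMS and the MBNL proteins are RNA-binding proteins that regulate splicing, and the comparisons ask how the RNA of differentiated cells changes with phenotype (P against D1) and on loss of each factor (each knockdown against D1). All cells therefore passed through 2 siRNA transfections, and 1 cell line stands for smooth muscle. The labels and the study's methods differ in the times of the second transfection and of harvest, so no time is given here. The study's methods describe the replicates as biological and independent, whereas the labels do not say whether they were separate cultures, and p-values measure the spread between these libraries.

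Total counts were 80842635 to 90771289 per library, and 3 counts, taken as the limit that a count of 0 allows, corresponded to 0.032 to 0.037 CPM (counts scaled to a common library size). All levels below are CPM scaled by the trimmed mean of M-values (TMM) over the 12 libraries. They are compared between groups for 1 gene or for 1 sum of marker genes, not between genes, since transcript lengths differ. Such a sum weights its genes by length and abundance. Replicate 3 of MBNL KD had the lowest total and stood further from its group than any other library, with a chi-square per degree of freedom of 12.8 against replicate 1, compared with 3.68 between replicates 1 and 2. The siRNA targets followed the labels. Rbpms was at 141 to 156 CPM in D1 and 37.1 to 38.4 CPM in RBPMS KD1, and Mbnl1 was at 343 to 353 CPM in D1 and 81.7 to 83.4 CPM in MBNL KD. Mbnl2 was at 179 to 183 CPM in D1 and 52.3 to 54.1 CPM in MBNL KD. Rbpms was also low in P, at 9.37 to 9.56 CPM.

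In proliferative cells the coat genes did not move as a unit. Against D1, 3 of the 7 were called changed, all of them lower (Cav3, Cavin2 and Ehd2), where a call needed both a fold change beyond 2 and an adjusted p under 0.05 (quasi-likelihood test of edgeR). Of all 16814 genes tested, 27.6% were called, 11.2% lower and 16.4% higher. With quantile scaling 2 of the 7 were called, and the calls over all genes turned from 2758 higher and 1883 lower to 2204 higher and 2675 lower. Without the fold threshold 6 of the 7 were lower and Cav2 was higher, in a comparison where 77.9% of all genes passed, 37.6% lower and 40.4% higher. The median log2 fold change of the 7 was -0.79, beside 0.02 for all genes tested. This median is the value of Cav1, which ranged from -0.81 to -0.57 over the alternatives listed in the processing section. The median of all genes was -0.068 with quantile scaling. In RBPMS KD1 none of the 7 was called, where 4.68% of all genes were, and at the adjusted p alone 4 were lower and 1 higher, where 59.1% of all genes passed, 29.5% in each direction. In MBNL KD none was called, where 10.2% of all genes were, and at the adjusted p alone 5 were lower and 2 higher, where 67.5% of all genes passed, 33.7% lower and 33.8% higher. DESeq2 also called none of the 7 in either knockdown, and at an unadjusted p under 0.05 in edgeR all 7 passed in each, where 62.5% of all genes did in RBPMS KD1 and 69.7% in MBNL KD. The libraries did not overlap those of D1 for 7 of the 7 genes in P, 6 in RBPMS KD1 and 7 in MBNL KD, and for 79.1%, 63.4% and 70.3% of all genes tested. The median log2 fold change of the 7 was -0.12 in RBPMS KD1 and -0.46 in MBNL KD, beside 0.0043 and 0.0099 for all genes tested. The 3 comparisons share the D1 libraries.

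**Figure D1:**
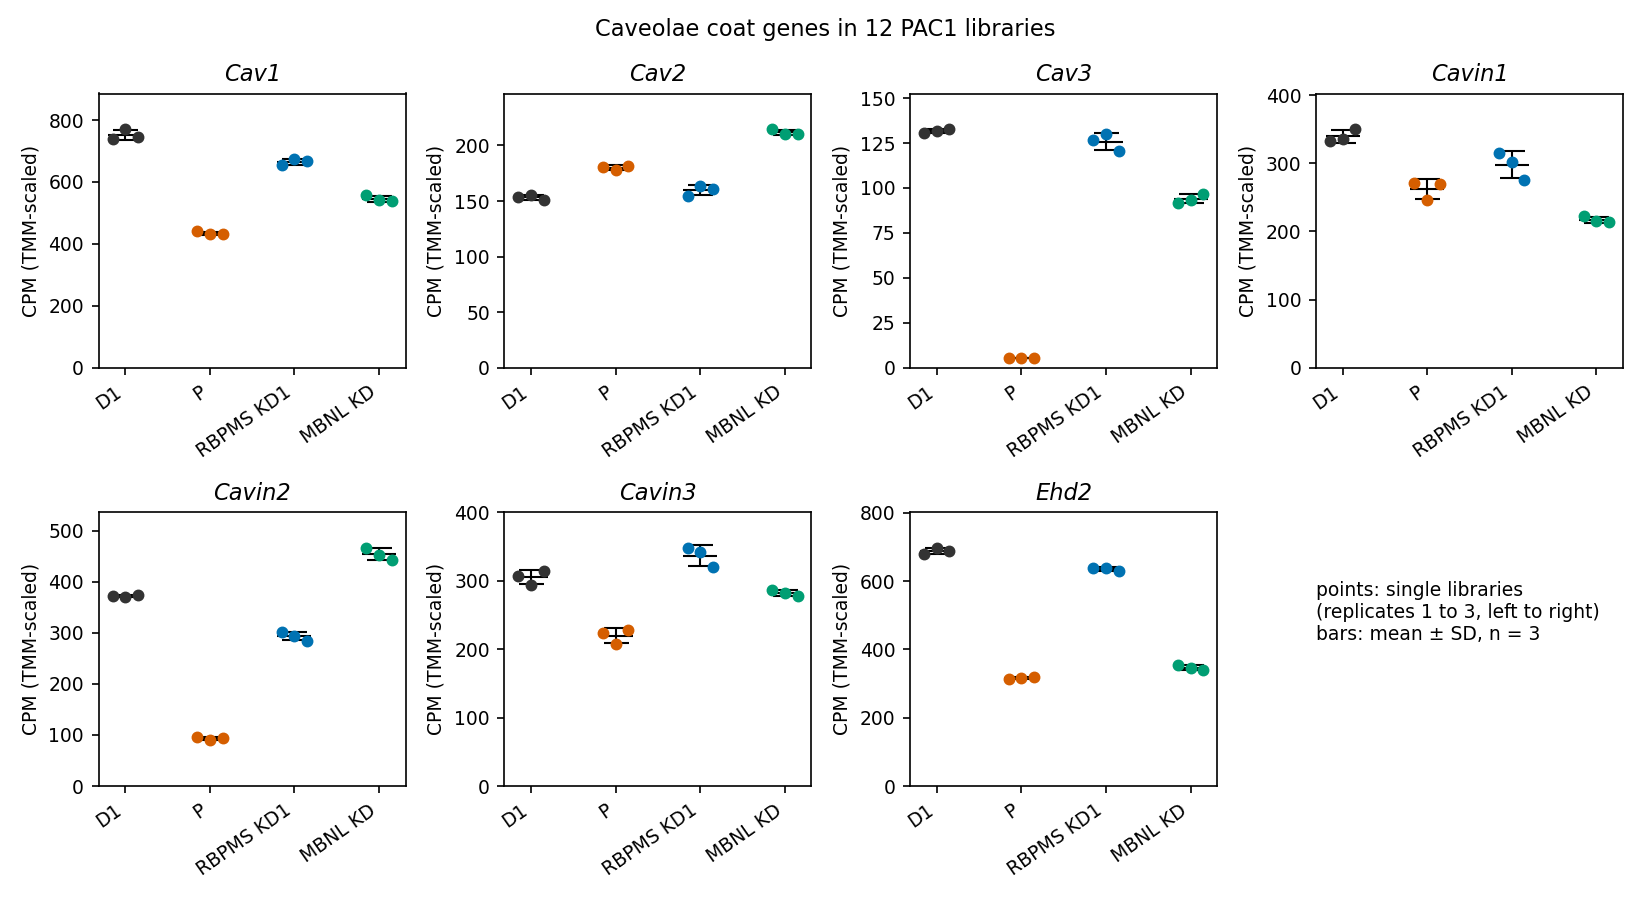
Level of each coat gene in CPM (vertical axis, from 0) in the 12 libraries, by group, with each point a library and bars giving the mean ± SD (n = 3). Cav3 is near the axis in P only, at 5.23 to 5.47 CPM, while Cav2 and Cavin2 have their highest points in MBNL KD.

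The promoters of the genes with a called change, and of the neighbouring pair Cav2 and Cav1, are shown because these genes moved most or moved apart. The sequences are the 250 bases before the RefSeq start of each gene on the GRCr8 build, read 5′ to 3′ along the gene. Entries were found for 6 of the 7 genes, Cav1 having 2 starts of which the first is shown, and Cavin3 had none. Capitals mark matches on either strand to the TATA box TATAAA, the MCAT element CATTCC, the CCAAT box and the GC box GGGCGG.
Cav3 (chr4:147137743-147137992, + strand): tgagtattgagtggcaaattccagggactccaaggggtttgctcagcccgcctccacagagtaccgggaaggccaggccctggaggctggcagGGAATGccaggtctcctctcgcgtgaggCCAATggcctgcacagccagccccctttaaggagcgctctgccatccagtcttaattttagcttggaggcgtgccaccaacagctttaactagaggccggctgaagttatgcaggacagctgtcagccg
Cavin2 (chr9:57806025-57806274, - strand): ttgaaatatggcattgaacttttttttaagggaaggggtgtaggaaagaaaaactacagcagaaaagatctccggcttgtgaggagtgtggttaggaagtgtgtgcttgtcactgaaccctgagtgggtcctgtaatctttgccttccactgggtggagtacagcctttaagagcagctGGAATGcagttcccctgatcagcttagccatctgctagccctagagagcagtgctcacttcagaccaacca
Ehd2 (chr1:85786944-85787193, - strand): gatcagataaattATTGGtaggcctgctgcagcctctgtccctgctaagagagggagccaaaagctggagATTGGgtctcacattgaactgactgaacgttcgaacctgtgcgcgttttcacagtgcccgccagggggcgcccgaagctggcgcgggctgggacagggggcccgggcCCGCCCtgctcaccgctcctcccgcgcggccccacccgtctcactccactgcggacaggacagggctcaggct
Cav1 (chr4:46606288-46606537, + strand): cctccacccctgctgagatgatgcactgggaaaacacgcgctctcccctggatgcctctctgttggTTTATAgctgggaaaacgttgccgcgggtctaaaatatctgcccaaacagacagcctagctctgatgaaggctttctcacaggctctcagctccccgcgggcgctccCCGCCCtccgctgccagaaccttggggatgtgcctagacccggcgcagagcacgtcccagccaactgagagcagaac
Cav2 (chr4:46582431-46582680, + strand): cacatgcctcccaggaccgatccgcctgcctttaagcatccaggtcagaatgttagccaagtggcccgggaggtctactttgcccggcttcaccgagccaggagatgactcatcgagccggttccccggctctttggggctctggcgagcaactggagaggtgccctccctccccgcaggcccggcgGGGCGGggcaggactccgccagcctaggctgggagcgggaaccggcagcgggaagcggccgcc
The MCAT element, a motif known from muscle promoters, was matched in Cav3, 157 to 152 bases before the start, and in Cavin2, 71 to 66 bases before the start, on the strand opposite to the gene (read as GGAATG). It was matched in no other entry of the coat genes, and 12.1% of 33469 rat promoters of this length hold it. The CArG box, the serum response factor motif of contractile genes, was matched in none of the 7 entries of the coat genes, beside 1.5% of all promoters. The CCAAT box was matched in Cav3, Cavin1 and, at 2 places, in Ehd2, with 34% of all promoters holding it. The GC box was matched in Cav1, Cav2, Cavin1 and Ehd2, with 30.5% of all promoters holding it, and the TATA box in Cav1 alone, on the opposite strand (read as TTTATA), with 12.9% of all promoters holding it. E-boxes (CANNTG, not capitalised) were matched in Cav1, Cav2, Cav3 and Cavin2, beside 65.5% of all promoters, and the 1 in Cavin2 at 76 to 71 bases before the start shares its last base with the MCAT match. These matches describe letters in the window and are not evidence of binding.

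In P, Cav3 had the largest change of the 7 coat genes. Cav3 is the caveolin of striated muscle, also found in some smooth muscle. It was at 130, 132 and 133 CPM in the D1 libraries, at 5.39, 5.23 and 5.47 CPM in P, at 127, 130 and 121 CPM in RBPMS KD1 and at 91.7, 93.5 and 96.9 CPM in MBNL KD. All P libraries were far below all others, yet their 491 to 512 counts were well above the limit of a count of 0. The level in P was 24.5-fold lower than in D1 (log2 fold change -4.62, SE 0.038, adjusted p = 1.1e-40, edgeR), a size exceeded by 4.82% of the genes tested. In MBNL KD Cav3 fell by 0.48 on the log2 scale (SE 0.025, adjusted p = 1.6e-16, edgeR). In RBPMS KD1 the log2 fold change was -0.062 (95% interval -0.12 to -0.0042, adjusted p = 0.06, edgeR), which misses the threshold. It turned to 0.0079 (adjusted p = 0.83) with quantile scaling and was -0.087 (adjusted p = 0.02) without RBPMS KD1 replicate 2, so that no direction can be given for Cav3 in RBPMS KD1. Over all alternatives the adjusted p ranged from 0.02 to 0.86.

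Cav1 and Cav2, which lie next to each other on chromosome 4 in the same orientation in the GRCr8 annotation, moved in opposite directions in P and MBNL KD. Cav1 is the principal scaffold of non-striated caveolae. It was at 739, 770 and 745 CPM in D1, 440, 431 and 431 CPM in P, 655, 673 and 669 CPM in RBPMS KD1 and 556, 541 and 539 CPM in MBNL KD, so that no pair of groups overlapped. Cav1 was 1.73-fold lower in P (log2 fold change -0.79, SE 0.024, adjusted p = 7.2e-25, edgeR), 1.13-fold lower in RBPMS KD1 (-0.17, SE 0.025, adjusted p = 6.5e-07) and 1.37-fold lower in MBNL KD (-0.46, SE 0.025, adjusted p = 3.7e-16).

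Cav2 encodes a partner that oligomerises with caveolin 1 and depends on it for transport to the surface. It was at 153, 156 and 151 CPM in D1, 181, 178 and 182 CPM in P, 154, 163 and 161 CPM in RBPMS KD1 and 215, 211 and 211 CPM in MBNL KD. All P and MBNL KD libraries were above all D1 libraries, while RBPMS KD1 overlapped D1. The log2 fold change of Cav2 was 0.23 in P (SE 0.025, adjusted p = 4.9e-10, edgeR) and 0.47 in MBNL KD (SE 0.024, adjusted p = 6.1e-17). In RBPMS KD1 it was 0.058 (95% interval 0.0027 to 0.11, adjusted p = 0.066, edgeR). Its side of the adjusted p threshold changed with the processing: the adjusted p was 0.013 without RBPMS KD1 replicate 1 and ranged from 0.00072 to 0.29 over all alternatives. The log2 fold change ranged from 0.039 to 0.115 over them.

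**Figure D2:**
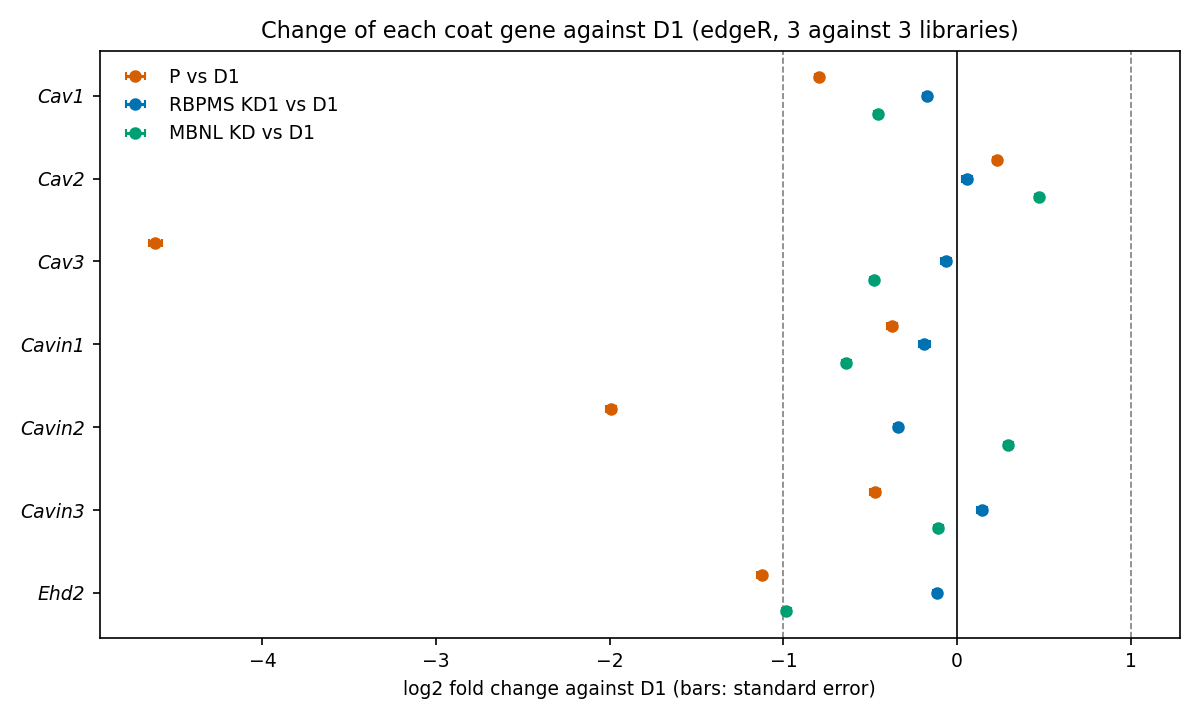
Log2 fold change of each coat gene against D1 (horizontal axis) in P, RBPMS KD1 and MBNL KD, with bars giving the standard error and dashed lines the 2-fold threshold. Cav3 and Cavin2 in P lie furthest left at -4.62 and -1.99, and Cav2 is right of 0 in each comparison.

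Among the 3 cavins of the 7 genes, Cavin2 changed most in P, and it moved in opposite directions in P and MBNL KD. Cavin2 encodes the subunit, also called SDPR, that promotes membrane curvature and whose need differs between tissues. It was at 372, 369 and 373 CPM in D1, 96.8, 90.2 and 93.4 CPM in P, 301, 294 and 285 CPM in RBPMS KD1 and 467, 452 and 443 CPM in MBNL KD. The 4 groups did not overlap, with MBNL KD above D1 and the other groups below it. Cavin2 was 3.98-fold lower in P (log2 fold change -1.99, SE 0.027, adjusted p = 5.6e-35, edgeR) and 1.27-fold lower in RBPMS KD1 (-0.34, SE 0.025, adjusted p = 2.3e-12), and it was 1.23-fold higher in MBNL KD (0.30, SE 0.025, adjusted p = 1.7e-11).

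Cavin1, also called PTRF, is the cavin without which caveolae do not form. It was at 333, 336 and 350 CPM in D1, 272, 246 and 270.1 CPM in P, 315, 302 and 276 CPM in RBPMS KD1 and 222, 215 and 214 CPM in MBNL KD. MBNL KD was lowest and P was below D1 in every library, but the lowest RBPMS KD1 library nearly reached the P range. The log2 fold change of Cavin1 was -0.37 in P (SE 0.029, adjusted p = 2.6e-13, edgeR), -0.19 in RBPMS KD1 (SE 0.033, adjusted p = 1.7e-05) and -0.64 in MBNL KD (SE 0.026, adjusted p = 4.5e-19). With quantile scaling the change in P was -0.20. In RBPMS KD1 it was -0.11 on the authors' normalised values, where it missed the threshold (adjusted p = 0.099, limma), and over all alternatives the adjusted p ranged from 5.5e-11 to 0.099. In the GRCr8 annotation 2 uncharacterised loci overlap Cavin1, and the counts do not show how reads shared with them were assigned.

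Cavin3, a subunit also called PRKCDBP, was lower in P and moved little in the knockdowns. It was at 307, 294 and 314 CPM in D1, 223, 207 and 229 CPM in P, 348, 342 and 319.8 CPM in RBPMS KD1 and 286, 282 and 277 CPM in MBNL KD, and only RBPMS KD1 was above D1. The log2 fold change of Cavin3 was -0.47 in P (SE 0.029, adjusted p = 4.6e-16, edgeR), 0.14 in RBPMS KD1 (SE 0.029, adjusted p = 0.00011) and -0.11 in MBNL KD (SE 0.027, adjusted p = 7e-04). The difference in MBNL KD was lost with quantile scaling (-0.0080, adjusted p = 0.79) and on the authors' normalised values, with adjusted p over all alternatives from 1.7e-05 to 0.85.

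Ehd2, the ATPase of the caveolar neck, was at 680.4, 698 and 689 CPM in D1, 313, 315 and 320.2 CPM in P, 638, 638 and 628 CPM in RBPMS KD1 and 354, 347 and 341 CPM in MBNL KD. The P libraries were slightly below the MBNL KD libraries, and these 2 groups were far below the others. Ehd2 was 2.18-fold lower in P (log2 fold change -1.13, SE 0.024, adjusted p = 1.8e-29, edgeR), 1.98-fold lower in MBNL KD (-0.98, SE 0.025, adjusted p = 3.1e-24) and 1.08-fold lower in RBPMS KD1 (-0.12, SE 0.024, adjusted p = 0.00011). It thus lay just inside the fold threshold in P and just outside it in MBNL KD, where 10.9% of the genes tested had a larger change. Small shifts moved it across: the log2 fold change in P was -0.91 with quantile scaling and -0.93 on the authors' normalised values, which leaves 2 of the 7 genes called there, and it was -1.0003 in MBNL KD without D1 replicate 1, which makes 1 of the 7 called. In RBPMS KD1 the value was -0.071 with quantile scaling and -0.056 on the normalised values, where its adjusted p stayed under the threshold. Without MBNL KD replicate 3 the MBNL KD change of Ehd2 was -0.97 and those of the other coat genes were -0.45 for Cav1, 0.48 for Cav2, -0.50 for Cav3, -0.63 for Cavin1, 0.31 for Cavin2 and -0.097 for Cavin3.

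The order of the 4 groups differed between the genes. Cav1 and Ehd2 were ordered from D1 down through RBPMS KD1 and MBNL KD to P. Cav3 had D1 and RBPMS KD1 above MBNL KD and P lowest, with no order between D1 and RBPMS KD1. Cavin1 had MBNL KD below P (P against MBNL KD, log2 fold change 0.24, SE 0.031, adjusted p = 4.3e-08, edgeR), and Cavin3 had RBPMS KD1 above D1. Cavin2 ran from MBNL KD through D1 and RBPMS KD1 to P with a 4.86-fold span, while Cav2 had MBNL KD highest, then P, then RBPMS KD1 and D1 with no order between them, and a 1.38-fold span. Of the 42 combinations of 7 genes and 6 group pairs, 40 differed at an adjusted p under 0.05, and the exceptions were Cav2 and Cav3 between RBPMS KD1 and D1. Across the 6 pairs the share of all genes passing that adjusted p was 77.9% for P against D1, 59.1% for RBPMS KD1 against D1, 67.5% for MBNL KD against D1, 69.5% for RBPMS KD1 against MBNL KD, 79.4% for P against RBPMS KD1 and 81.5% for P against MBNL KD, so that passing was common in each.

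The knockdowns were also compared directly, which leaves the shared D1 libraries out. None of the 7 was called between RBPMS KD1 and MBNL KD, where 11.9% of all genes were, while all 7 passed the adjusted p, 5 of them higher in RBPMS KD1 and 2 lower. Of all genes 69.5% passed it there, 34.5% higher and 35.1% lower. Ehd2 had the widest gap, 1.83-fold higher in RBPMS KD1 (log2 fold change 0.87, SE 0.026, adjusted p = 6.9e-23, edgeR). Cavin2 was 1.55-fold lower in RBPMS KD1 (-0.63, SE 0.028, adjusted p = 1.2e-18) and Cav2 1.33-fold lower (-0.41, SE 0.026, adjusted p = 1.6e-14). Cav1, Cav3, Cavin1 and Cavin3 were higher in RBPMS KD1, with log2 fold changes of 0.29, 0.42, 0.46 and 0.26.

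The balance between coat genes was followed as log2 ratios of counts within a library, which do not depend on a scaling factor per library. The Cav2 to Cav1 ratio was -2.29 ± 0.020 in D1 (SD, n = 3), -1.27 ± 0.021 in P, -2.06 ± 0.021 in RBPMS KD1 and -1.36 ± 0.0088 in MBNL KD, so Cav2 rose relative to Cav1 by 1.02, 0.23 and 0.93 on the log2 scale. The Cavin2 to Cavin1 ratio was 0.13 ± 0.034 in D1, -1.49 ± 0.043 in P, -0.021 ± 0.059 in RBPMS KD1 and 1.06 ± 0.012 in MBNL KD, a difference from D1 of -1.62, -0.15 and 0.93. The groups did not overlap D1 for either ratio in any of the 3 comparisons, and each difference had p = 0.1 in a two-sided exact permutation test, the smallest value that 3 against 3 libraries allow. The Cavin1 to Cav1 ratio, which sets the essential cavin against the principal caveolin, moved less. It was -1.15 ± 0.054 in D1, -0.73 ± 0.075 in P, -1.16 ± 0.11 in RBPMS KD1 and -1.33 ± 0.0043 in MBNL KD. The difference from D1 was 0.42 in P (exact permutation p = 0.1), -0.017 in RBPMS KD1 (exact permutation p = 0.9) and -0.18 in MBNL KD (exact permutation p = 0.1).

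**Figure D3:**
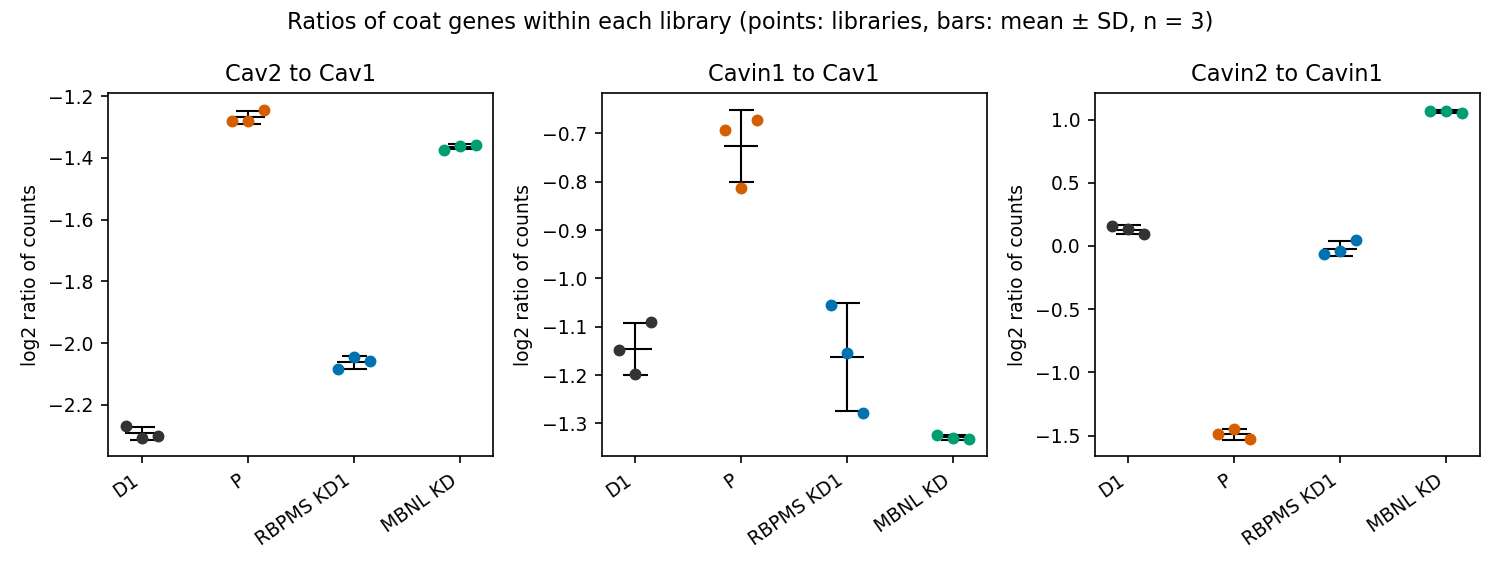
Log2 ratio of the counts of 2 coat genes within each library (vertical axes, different ranges), by group, with points for libraries and bars for the mean ± SD (n = 3). Cav2 to Cav1 is higher in P and MBNL KD than in D1, whereas Cavin2 to Cavin1 is lowest in P (-1.49) and highest in MBNL KD (1.06).

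Genes nearest to Cav1 and to Cavin1 were found by the distance between their 3 log2 differences from D1 among 9536 genes with a mean of at least 10 CPM. Nearest to Cav1 were Myadm (distance 0.051), Ipo11 (0.078) and Tmem63b (0.079), and nearest to Cavin1 were Bptf (0.064), Bloc1s6 (0.069) and Iqce (0.075). The other coat genes were further from Cav1: Cavin1 ranked 452, Cavin3 881, Ehd2 1152, Cav2 7364, Cavin2 7468 and Cav3 9371. This distance also counts the size of a change. The Pearson correlation with Cav1 over the 12 libraries was 0.94 for Ehd2, 0.88 for Cav3 and 0.87 for Cavin3. It was 0.73 for Cavin2, 0.66 for Cavin1 and -0.63 for Cav2. Ranked instead by Pearson correlation over the 12 libraries, none of the 3 nearest to Cav1 and 1 of the 3 nearest to Cavin1 (Bptf) stayed among the nearest 3.

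Paralogs and other proteins of the caveolar neck moved in both directions. Of 9 such genes, 5 were higher and 4 lower in P at the adjusted p, and 1 was called in each direction. Of all genes 77.9% passed and 27.6% were called, so the share called among the 9 was near that of all genes. Their median log2 fold change was 0.22. Cavin4, the cavin of striated muscle, had 42 to 56 counts in D1, 365 to 425 in P, 26 to 41 in RBPMS KD1 and 171 to 228 in MBNL KD. All P and MBNL KD libraries were above D1, at 4.24 ± 0.33 and 2.30 ± 0.22 CPM against 0.55 ± 0.087 CPM (SD, n = 3), and Cavin4 was called higher in P (log2 fold change 2.93, SE 0.15, adjusted p = 1.7e-18, edgeR) and in MBNL KD (2.06, SE 0.17, adjusted p = 1.1e-11). It thus rose where Cav3, the caveolin of striated muscle, fell. Flna, the actin crosslinker filamin A that ties caveolae to stress fibres, was called lower in P, from 6718 to 1691 CPM (log2 fold change -1.99, SE 0.026, adjusted p = 4.3e-35, edgeR), and was also lower in RBPMS KD1 (-0.57) and MBNL KD (-0.50). In RBPMS KD1, 2 of the 9 were higher and 6 lower, where 59.1% of all genes passed and 4.68% were called, and the 1 call was Pacsin1, a membrane-bending F-BAR protein, at 2.48 CPM in D1 and 1.17 CPM in the knockdown (log2 fold change -1.09, adjusted p = 1.9e-07, edgeR). In MBNL KD, 2 were higher and 4 lower, where 67.5% of all genes passed and 10.2% were called. Ehd1, the paralog that acts in endosomal recycling, was at 176 CPM in D1 and 90.3 CPM in MBNL KD (log2 fold change -0.96, SE 0.026, adjusted p = 1.4e-23, edgeR), whereas it was at 228 CPM in P, so that it moved with Ehd2 in MBNL KD but not in P.

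**Figure D4:**
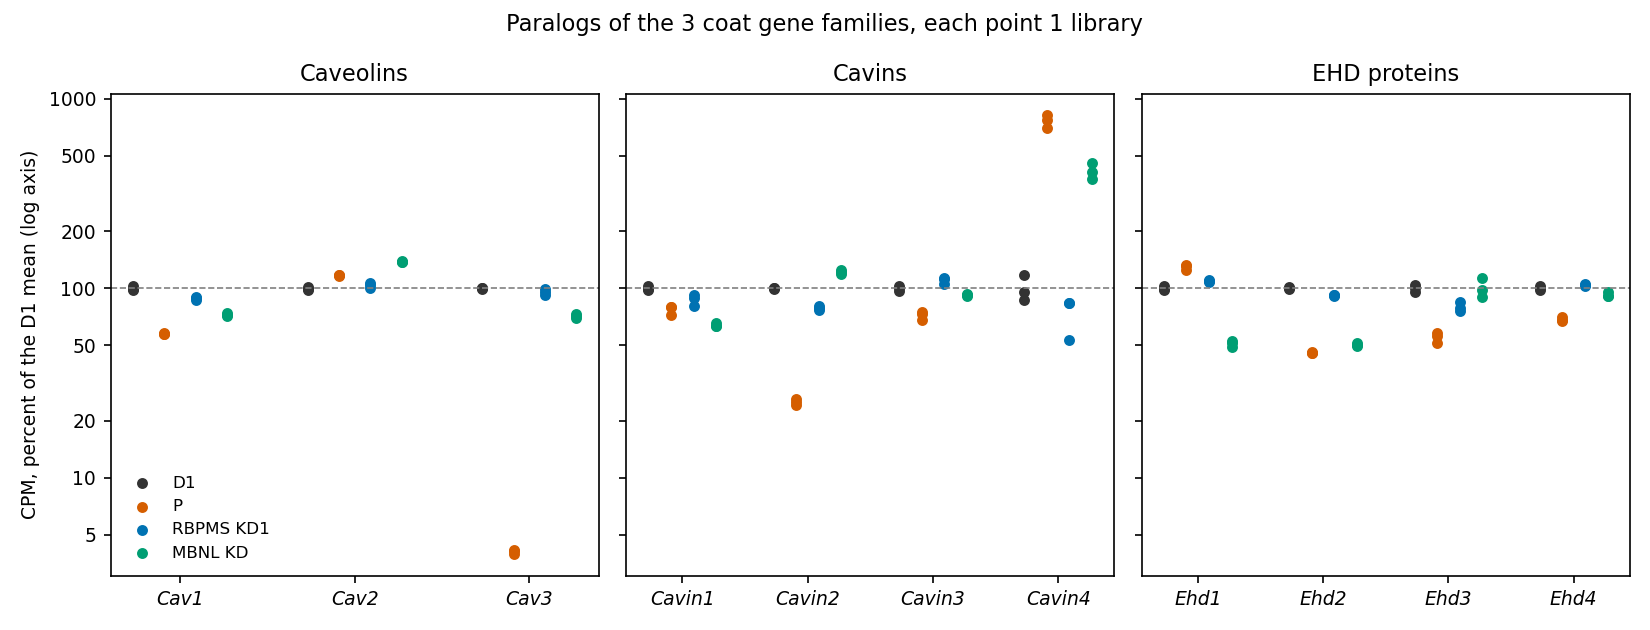
Level of each caveolin, cavin and EHD paralog in each library as a percent of the D1 mean (log axis), with a dashed line at 100. Cav3 in P is lowest at 4.08% on average, Cavin4 in P and MBNL KD is highest, and Ehd1 and Ehd2 in MBNL KD are at 51.3% and 50.4%.

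Other entry routes served as a contrast. Of 10 genes of the clathrin coat and its AP2 adaptor, none was called by edgeR in P or RBPMS KD1, while 9 and 6 passed an unadjusted p under 0.05, as did 78.9% and 62.5% of all genes, and their median log2 fold change was -0.071 in P. Of all genes 27.6% were called in P and 4.68% in RBPMS KD1, so that none of 10 is near the share of all genes in the knockdown. In MBNL KD, where 10.2% of all genes were called, the AP2 subunit Ap2s1 was called lower, from 95.4 to 28.4 CPM (log2 fold change -1.74, SE 0.031, adjusted p = 6e-28, edgeR), which is 1 of the 10 genes. Of the 3 flotillin and stomatin genes, which mark lipid rafts outside caveolae, none was called by edgeR in P or RBPMS KD1, while all 3 passed an unadjusted p under 0.05 in each. Flot2 was called lower in MBNL KD, from 81.2 to 27.2 CPM (log2 fold change -1.57, SE 0.035, adjusted p = 1.1e-25). Flot2 was at 144 CPM in P.

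Of 16 genes for receptors, channels, pumps and signalling enzymes often placed in caveolae, 15 were tested in P, where 10 were lower and 3 higher at the adjusted p, with a median log2 fold change of -0.45. Of all genes 77.9% passed, 37.6% lower, and 11.2% were called lower. The 5 called lower were Pdgfrb, the PDGF receptor beta (915 to 195 CPM, log2 fold change -2.23), the angiotensin receptor gene Agtr1a (-1.91), the plasma membrane calcium pump gene Atp2b4 (-1.83), the endothelin receptor gene Ednra (-1.499) and the sodium-calcium exchanger gene Slc8a1 (-1.32). Nos3, the endothelial nitric oxide synthase, was called higher in P but stayed near the limit of detection, with 0 to 6 counts in D1 and 33 to 48 in P. In each knockdown 7 were lower and 4 higher, where 59.1% of all genes passed in RBPMS KD1 and 67.5% in MBNL KD, so that the share passing was near that of all genes. The only calls, 1 of 15 in each, where 4.68% and 10.2% of all genes were called, were Agtr1a in RBPMS KD1, from 4.06 to 1.55 CPM (log2 fold change -1.39, adjusted p = 2.1e-11, edgeR), and Atp2b4 in MBNL KD, from 89.3 to 30.3 CPM (-1.55, adjusted p = 1.4e-25).

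Marker genes of smooth muscle, endothelium and striated muscle moved with the groups. The summed level of 8 smooth muscle genes, a list that the study chose on these samples, was 9819 to 10319 CPM in D1, 210 to 224 CPM in P, 4889 to 5066 CPM in RBPMS KD1 and 7818 to 7935 CPM in MBNL KD. In D1 most of this sum was Acta2 and Tagln, at 5041 and 3249 CPM. All 8 were called lower in P, where 11.2% of all genes were, a count that the choice of the list fixes, with Acta2, smooth muscle actin, at -6.77 and Myocd, the coactivator of contractile genes, at -4.97. In RBPMS KD1 all 8 were lower at the adjusted p and 4 were called, where 29.5% of all genes were lower and 4.68% were called. In MBNL KD 6 were lower and 2 higher at the adjusted p with none called, where 67.5% of all genes passed and 10.2% were called. The 2 higher were Myh11, from 51.5 CPM in D1 to 74.4 CPM, and Cnn1, from 19.2 to 20.7 CPM. In bulk RNA, fewer cells of a type and less RNA per cell cannot be told apart. The 6 endothelial markers summed to 1.77 to 1.83 CPM in D1, 14.7 to 15.4 CPM in P, 2.78 to 2.94 CPM in RBPMS KD1 and 2.90 to 3.44 CPM in MBNL KD. In P, Cdh5 had 122 to 138 counts and was at 0 in the 9 other libraries, Erg was at 9.02 CPM and Tek at 3.55 CPM, while Kdr had at most 4 counts and Pecam1 at most 10. Of the endothelial markers, all 4 tested in P were called higher, where 16.4% of all genes were. Of the 3 tested in RBPMS KD1, 2 were called higher, where 4.68% of all genes were called. They were Tek, from 0.269 CPM in D1 to 0.674 CPM, and Vwf, from 0.458 to 1.07 CPM. Of the 3 tested in MBNL KD none was called, where 10.2% of all genes were. The 6 striated muscle markers summed to 3.75 to 4.02 CPM in D1, 2.59 to 2.98 CPM in P, 0.913 to 1.39 CPM in RBPMS KD1 and 8.98 to 10.2 CPM in MBNL KD. Of the 3 tested in MBNL KD, 2 were called higher and 1 lower, where 10.2% of all genes were called. In RBPMS KD1 the 2 tested, Tnnt2 and Ckm, were called lower (log2 fold changes -1.75 and -1.86), where 4.68% of all genes were called. Most of the summed rise in MBNL KD was Tnnt2, cardiac troponin T, from 2.86 to 8.65 CPM, while Myod1 had 44 to 64 counts and was at 0 in D1. Ckm, the muscle creatine kinase, was called lower in MBNL KD, from 0.982 to 0.336 CPM, and Myog, Myh6 and Myh7 had at most 8 counts in any MBNL KD library. The 4 adipocyte markers summed to at most 0.269 CPM in any library and the 4 leukocyte markers to at most 1.49 CPM. Of the 2 leukocyte markers tested in MBNL KD, 1 was called higher, where 10.2% of all genes were called. It was Csf1r, from 0.265 CPM in D1 to 0.653 CPM. The part of these markers in the coat gene results was not tested.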

How the data were processed

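Poly(A) RNA from the 12 PAC1 libraries was sequenced as paired reads with a directional kit. Per the study's methods, the authors subsampled the reads to an equal number per library, aligned them to mRatBN7.2 with STAR (version 2.7.11b in the submitters' processing notes) and counted reads per RefSeq gene with featureCounts; the deposited counts are raw counts of 33294 genes. Even counts were about 2.1 to 2.4 times as common as odd ones and totals exceed the number of reads that the methods give after subsampling, so each fragment may have entered as 2 counts. Printed counts would then stand for fewer fragments, and the limit of 3 counts would be too low. How mates and strand were counted is not given in the sources used here. The second deposited table holds a normalised signal of 19812 genes, made by the authors with noisyR and quantile normalization, with a smallest value of 35. It served only as an alternative.

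Groups were taken from the labels. Each pair of groups was fitted on its own 6 libraries with edgeR 4.0.16 in R 4.3.3 (filterByExpr, TMM, quasi-likelihood F test), with Benjamini-Hochberg adjustment over all genes tested. Genes with an adjusted p under 0.05 and a log2 fold change beyond 1 were called changed. Standard errors are the log2 fold change over the square root of F. Levels are CPM with TMM over the 12 libraries. Ratios used counts plus 0.5 and two-sided exact permutation tests. The fit was tested on simulated data.

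Alternatives were DESeq2 1.42.0 and its size factors, quantile scaling, other count filters, counts thinned to 25%, limma 3.58.1 on the normalised table, a replicate block, each library left out, and no fold threshold. The genes and lists were chosen with earlier results of these data known. Genes named are the 7 coat genes, related-list genes called against D1, smooth muscle markers, siRNA targets, and the 3 genes nearest in pattern to Cav1 and to Cavin1 (no symbols starting with LOC); Ehd1, the RBPMS KD1 and MBNL KD values of Flna, and the other cell type markers were singled out after their values were seen. The limit of 3 counts covers counting error only, and reads carried no molecular identifiers. The 95% intervals of log2 fold changes come from the same fit as the standard errors. Promoters are RefSeq sequences of GRCr8, a different build from that of the counts, matched by symbol.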

Additional observations from a re-analysis of the deposited data

Results flagged for a closer look

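Cavin2 and Cavin3 moved in opposite directions from D1 in the 2 knockdowns and passed the adjusted p in the direct comparison of the knockdowns. They were picked for these results, so the p-values below restate the choice and do not test it. For Cavin3 the move in MBNL KD was small (-0.11) and was lost with quantile scaling (-0.0080, adjusted p = 0.79) and on the authors' normalised values (-0.0067, adjusted p = 0.85, limma), with adjusted p over all alternatives from 1.7e-05 to 0.85. The level of Cavin2 was lower in RBPMS KD1 than in MBNL KD by a log2 difference of -0.63 (SE 0.028, adjusted p = 1.2e-18, edgeR), with all 3 RBPMS KD1 libraries below all 3 MBNL KD libraries. The level of Cavin3 was higher in RBPMS KD1 by a log2 difference of 0.26 (SE 0.029, adjusted p = 4.2e-09, edgeR), again without overlap. Leaving out MBNL KD replicate 3, the library that stood furthest from its group, gave -0.64 for Cavin2 and 0.25 for Cavin3. Of all genes tested in this comparison 69.5% passed the adjusted p, and over the alternatives the difference ranged from -0.67 to -0.59 for Cavin2 and from 0.20 to 0.31 for Cavin3.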

How the results depend on the processing

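Of 448 log2 fold changes of the coat genes recomputed under the alternatives, 438 kept their direction and their side of the adjusted p threshold. Of 230 counts and ratios 213 stayed within 1.5 times (counts) or within the spread between replicates (ratios). Dropping the fold threshold raised the genes called to 13103 (P), 9393 (RBPMS KD1), 10833 (MBNL KD) and 11202 (RBPMS KD1 against MBNL KD), and the coat genes counted to 7, 5, 7 and 7. At least 10 counts in every library left 2933 genes called in P, by testing fewer genes. Thinning to 25% left 480 in RBPMS KD1. Limma on the authors' normalised values called 209 genes in RBPMS KD1, 784 in MBNL KD and 1050 between the knockdowns, and the cause was not tested. On those values the difference from D1 was 0.90 (P) and 0.91 (MBNL KD) for Cav2 to Cav1 and -1.69 (P) for Cavin2 to Cavin1. Quantile scaling turned the calls in P from 2758 higher and 1883 lower to 2204 higher and 2675 lower, and in RBPMS KD1 from 487 and 258 to 379 and 325. The change of Cav3 in RBPMS KD1 reversed to 0.0079 with quantile scaling and 0.0079 on the normalised values, and was -0.087 (adjusted p = 0.02) without RBPMS KD1 replicate 2, with adjusted p over all alternatives from 0.02 to 0.86. Leaving out 1 library at a time gave 0 to 1 coat genes called in MBNL KD, the 1 being Ehd2 without D1 replicate 1. Same-numbered libraries did not deviate together (correlations of -0.030 to 0.017), so no pairing by number was seen. Noise in genes of few counts can hide a pairing, so none was excluded. With a replicate block 4593, 730, 1634 and 1915 genes were called in the order above, with 3, 0, 0 and 0 coat genes, 41 of the 42 gene and group pair combinations differed, and Cav2 in RBPMS KD1 passed (adjusted p = 0.049). Depth limits genes of a few counts such as Nos3, and fewer genes were called in RBPMS KD1 after thinning.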
